A study of Drosophila melanogaster with 3 samples.

Results

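Peaks of a GFP-tagged transcription factor that lay deep in introns of Drosophila melanogaster genes, more than 2000 bp from any start site of a protein-coding gene, are described here. A peak belonged to this set when its summit was inside a protein-coding gene, in no coding or untranslated exon of such a gene, and beyond that distance, so position alone and not signal chose the members. There were 1169 of them among the 5208 peaks of the authors' optimal list, 22.4% (95% Wilson interval 21.3 to 23.6%, counting error only). The same rule took 1182, 1049 and 1162 of the 5208 strongest regions in replicates 1, 2 and 4. Just inside the limit lay a summit in FASN1 at 2001 bp (signal 168) and one in CG43658 at 2006 bp (signal 151), and just outside it one in Irk1 at 2000 bp (signal 192) and one in Men-b at 1998 bp (signal 317).

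Chromatin immunoprecipitation with an anti-GFP antibody and sequencing was carried out on whole embryos of both sexes collected over 0 to 24 h, in 3 biological replicates numbered 1, 2 and 4, each from its own sample of 1 transgenic strain. The labels conflict, since the strain name, CG18619-GFP, and the source and antibody fields point to REPTOR-BP, but elsewhere REPTOR with GFP at its C-terminus is named, so the protein is called the tagged factor below. All 3 samples carried the transgene and belonged to 1 group, and neither an untagged nor a treated sample was analysed here. No label used here names what drives the transgene or says whether the endogenous gene was intact. Each value sums all cells and stages of the embryo, so that few cells with strong binding and many with weak binding cannot be told apart.

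REPTOR pairs with REPTOR-BP, both being transcription factors of the basic leucine zipper (bZIP) family, and the pair acts on metabolic and stress genes when the nutrient-sensing kinase complex TORC1 is inhibited. Introns of fly genes are transcribed and then spliced out, and long ones, often the first intron of a developmental regulator, hold many enhancers, DNA elements that bind transcription factors and raise the expression of a gene from a distance. A ChIP-seq peak reports that DNA at a site was enriched with the tagged factor, directly or through another protein, and does not say which gene it acts on.

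The DNA at the strongest members was rich in A and T, a property shared by most of the set, and the 30 bases around the summits of 8 of them are shown for that reason. They are the members of highest signal that were found in all 3 replicates, leaving aside those on an arm whose sequence is not shown here, read on the + strand of the dm6 genome (RefSeq). Capitals mark any of the 10 hexamers described further below.
Tlk, X:3742224-3742253: atcaagatagattttttattacactgcttt
osa, 3R:17704385-17704414: ttcattaaattattgtttctgatcaagtca
simj, 3L:10682971-10683000: tattaggactataataaattcgcacaagaa
osa, 3R:17700579-17700608: gcttctataaaaatATATTAgtttattctg
CG32486, 3L:3060780-3060809: attagaggctagagagtcaataagcaaaac
trx, 3R:14283868-14283897: taacttttcctactccacttattaAATATT
Gug, 3L:8458325-8458354: agaaactttatatagaaaaatatgttcttg
Kdm2, 3R:9057508-9057537: tttctaaaataaaataaaaccatttagtca
Of the 30 bases, 23 were A or T at Tlk and also at the first osa site. The most, 25, were at Kdm2, and the fewest, 19, at CG32486, which was thus less rich in A and T.

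The second set is shown because it holds TGTTTAC, the word with the highest ratio of summit to flank among those searched that were in at least 20 members, which forkhead transcription factors such as FOXO recognise. These are the 6 strongest members with that word within 50 bp of the summit, the same arm left aside, chosen after their values were seen. The sequences are on the strand that reads TGTTTAC, in capitals, which is the minus strand in all 6. Over all members that held it, the word lay on the plus strand in 32, on the minus strand in 38 and on both in 1.
Lrch, 2L:17378838-17378867: tgttttcctggaTGTTTACacttggccaac
S, 2L:1072381-1072410: acatatacagcgTGTTTACctactttgtag
Raf, X:2300651-2300680: tgttatttcagaTGTTTACattcggcgagc
Unc-115a, 3R:9702767-9702796: accttccaccaaTGTTTACattctcaactg
Oatp30B, 2L:9525881-9525910: tcgtctgctctaTGTTTACccgagaatcag
Dys, 3R:19584937-19584966: ttgactgcattcTGTTTACacaattgttgt
In the Unc-115a peak the middle base of the word was the summit itself, and in the other 5 it lay 19 to 31 bp away.

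The members of highest signal are described one by one. These values were used to rank the members and are a description. Signal is the enrichment value the authors' caller gave each region, on each list's own scale and with no unit stated, so ranks rather than signals compare between lists. The first was in the first intron of Tlk, the Tousled-like kinase of chromatin assembly (X:3742003-3742411, signal 2053, rank 26 in the optimal list). It ranked 30, 24 and 33 in replicates 1, 2 and 4, with signals of 670, 530 and 845 in those lists. Next came sbb, a transcriptional corepressor also called scribbler (2R:18336890-18337395, signal 1724), at ranks 41, 13 and 160. This peak stood 20115 bp from the nearest start site, and the Tlk peak 2341 bp from it.

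A pair of peaks lay in the same intron of osa, a subunit of the Brahma chromatin remodelling complex. The stronger (3R:17704226-17704605, signal 1702) ranked 51, 62 and 41, and the other (3R:17700358-17700797, signal 1554) ranked 65, 44 and 78 in the 3 replicates. The latter was within 500 bp of the start of a noncoding RNA, lncRNA:CR46036, and the nearest coding start was that of another gene, CG31249, 13522 bp away. The peak in simj, a subunit of the NuRD deacetylase complex (3L:10682706-10683247, signal 1636), ranked 55, 42 and 64.

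Further strong members were in trx, the trithorax histone methyltransferase (signal 1395, ranks 104, 61 and 102), in Gug, the Atrophin corepressor (signal 1275, ranks 109, 98 and 162), and in Kdm2, a histone demethylase (signal 1274, ranks 127, 92 and 140). Smr, a corepressor of nuclear receptors, held one of signal 1020 (ranks 245, 259 and 167), and CHES-1-like, a forkhead factor, one of signal 1064 that was 2015 bp from the start and so close to the limit. Hr3, a nuclear receptor of the ecdysone cascade that overlaps CG46321 and CG12912, held one of signal 1479 (ranks 85, 77 and 73). Another was in Raf, the kinase below Ras (X:2297553-2297883, signal 1243, ranks 140, 116 and 156). Of the 9 members in tara, a trithorax-group gene, a pair were among the strongest 20, with signals of 1222 and 1155.

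The remaining members of the strongest 20 were in CG12769 (signal 1649), CG32486 (signal 1483), beat-Ib, an immunoglobulin-family cell surface gene (signal 1109), Pits (signal 1078), CG9328 (signal 939) and Lrch (signal 923). All 20 were matched in all 3 replicates, since the choice required it, and their ranks there ran from 13 to 495. Of the 20, 15 were in a first intron.

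Intronic peaks far from starts were weaker as a class than peaks at promoters, defined as summits within 500 bp of a coding start. The median signal was 225 (quartiles 178 and 313) for the 1169 members, against 277 (196 and 454) for 2383 promoter peaks, 257 for 794 peaks in introns at 500 to 2000 bp, and 241 for 774 peaks between genes. The order was the same in each replicate's own list. Members matched in replicate 1 had a median rank of 2974, against 2252 for promoter peaks, in replicate 2 of 3063 against 2362, and in replicate 4 of 3082 against 2085. The difference was 807 ± 166 ranks (SD, n = 3) and had the same sign in 3 of 3 replicates (exact sign-flip permutation, two-sided p = 0.25). With 3 replicates this test cannot give a p below 0.25, so no comparison over replicates here can pass 0.05.

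Against peaks in nearer introns, the members' median rank was lower in the list by 413 ± 251 places, and against peaks between genes by 173 ± 149 (SD, n = 3 replicates, exact permutation p = 0.25 for both). In replicate 2 the last of these differences was 4.5 ranks. Among the 250 strongest peaks of the optimal list 7.6% were members (19 peaks, interval 4.92 to 11.6%), among ranks 501 to 1000 15.6%, and among ranks 3001 to 4000 27.1%. The share of promoter peaks in the same tiers was 67.6%, 54.6% and 41.3%.

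**Figure D1:**
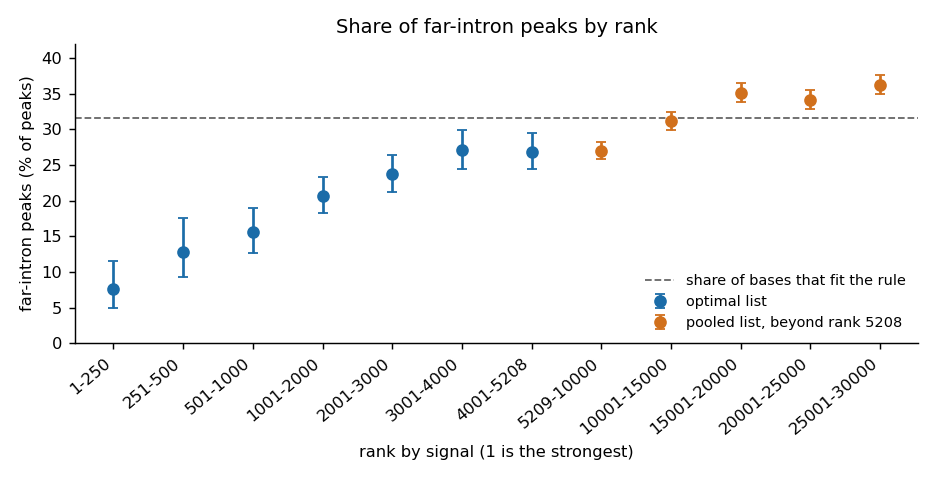
Share of far-intron peaks (y axis, percent of the peaks in a tier, with 95% Wilson intervals) against rank by signal (x axis), in the optimal list (blue) and in the authors' pooled list beyond rank 5208 (orange); the dashed line is the 31.6% of assembled bases that meet the position rule. The share starts at 7.6% among the strongest 250 peaks and is 27.1% at ranks 3001 to 4000, with the last 3 pooled tiers at 35.1, 34.2 and 36.2%.

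Most of the members could be found again in each replicate. In the 5208 strongest regions of replicates 1, 2 and 4, 81.9%, 70.6% and 81.6% of members had a summit within 100 bp, a mean of 78.0% ± 6.45 (SD, n = 3). A total of 590 members were matched in all 3, 50.5% (interval 47.6 to 53.3%), beside 53.4% of all optimal peaks. In 2 replicates 406 were matched, in 1 replicate 154, and in none 19. The members' share was 0.476 ± 1.28 percentage points above that of peaks in nearer introns and 0.367 ± 1.63 above that of peaks between genes (SD, n = 3). The sign of both differences varied between replicates. Promoter peaks were matched more often than members, by 1.46 ± 0.787 percentage points over the replicates (exact permutation p = 0.25).

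In the full lists of 30000 regions the order turned. There 96.0%, 94.0% and 96.2% of members were matched, 2.95 ± 1.13 points more than promoter peaks (SD, n = 3, higher in 3 of 3, exact permutation p = 0.25). All 1169 had a match in at least 1 full list, and 1016 had one in all 3. Matched summits lay a median of 18, 15 and 16 bp from the member's summit. The optimal list was derived by the authors from the same 3 replicates, so its matches with them are in part built in.

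Far introns held a smaller share of peaks than of bases, and peaks thinned out with distance from a start. The bases that meet the rule, 42.3 Mb or 31.6% of the 6 arms, are called far introns below. Neither repeats nor bases where reads cannot be placed uniquely were left out of any base count or density here. Their part in the low densities was not tested. Far introns held 22.4% of the optimal peaks, 0.711 times their share of bases. In replicates 1, 2 and 4 the share of the strongest regions was 22.7%, 20.1% and 22.3%, all below 31.6% (mean 21.7% ± 1.38, SD, n = 3, exact permutation p = 0.25). On the log2 scale the ratio was -0.49, and -0.08 when the start of each gene stood for all its starts. Density was 27.7 peaks per Mb in far introns, against 76.7 in introns at 500 to 2000 bp, 155 within 500 bp of a start and 19.3 between genes.

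Within introns, the density of the optimal list was 188 per Mb within 250 bp of a start and 67.9 at 1000 to 2000 bp. Beyond the limit it was 46.8 at 2000 to 3000 bp, 42.5 at 3000 to 5000 bp, 34.2 at 5000 to 10000 bp, 20.2 at 10000 to 20000 bp and 15.1 at 20000 to 50000 bp. In the 5.07 Mb of intron beyond 50000 bp there were 5 peaks, 0.987 per Mb. Each replicate had the same order of bins from 2000 bp on. At 2000 to 3000 bp the mean of the replicates was 45.2 ± 2.87 per Mb and at 20000 to 50000 bp 13.7 ± 0.681 (SD, n = 3), so these bins differed by more than the spread between replicates.

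**Figure D2:**
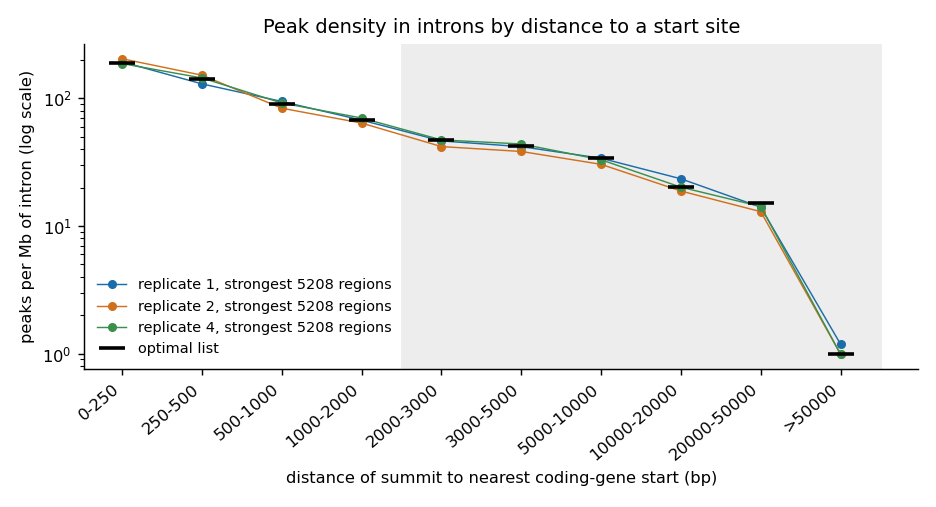
Peaks per Mb of intron (y axis, log scale) by the distance of the summit to the nearest coding start (x axis, bp), for the strongest 5208 regions of each replicate (coloured points and lines) and the optimal list (black bars); shading marks the bins beyond 2000 bp. Density falls from 46.8 per Mb at 2000 to 3000 bp to 15.1 at 20000 to 50000 bp and 0.987 beyond 50000 bp in the optimal list, with the 3 replicates close to each other in every bin.

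The members' median distance from a start was 5478 bp (quartiles 3419 and 9445 bp), against 8974 bp for the bases of far introns. The replicates' own sets gave 5634, 5364 and 5283 bp. Of the 5 members beyond 50000 bp, 3 were in hth and 2 in Sema1a, a homeodomain factor gene and a semaphorin guidance gene, and their signals ran from 157 to 288. The farthest, in hth, was 85864 bp from a start. The longest annotated intron at the summit had a median of 17971 bp for the members, shorter than the 20441 bp over far-intron bases. The position rule itself favours long introns. Members lay a median of 2757 bp from the nearest exon of a coding gene.

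First introns held most of the far peaks, and their density was higher than that of later introns at every distance up to 50000 bp. An intron was counted as first if it was the first intron of any annotated transcript of a coding gene. Of the members 705 were in first introns, 60.3% (interval 57.5 to 63.1%), although first introns made up 37.1% of far-intron bases. The share was 60.4%, 61.1% and 61.1% in the replicates' own sets (mean 60.9% ± 0.403, SD, n = 3, above the share of bases in 3 of 3, exact permutation p = 0.25). Second introns held 26.1% of members on 25.8% of the bases, those next in order 7.27% on 9.996%, and later introns 6.33% on 27.1%.

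First introns were also the denser ones when bases at the same distance were compared. At 2000 to 3000 bp first introns had 62.7 peaks per Mb and later ones 26.6, and at 5000 to 10000 bp they had 43.7 and 26.7. At 20000 to 50000 bp the densities were 29.5 and 11.1. In each of the 5 bins up to 50000 bp first introns were denser in 3 of 3 replicates (exact permutation p = 0.25 in each), by 1.63 to 2.67 times in the optimal list. Beyond 50000 bp the 0.364 Mb of first intron held none and the 4.70 Mb of later introns held 5. Other properties of first introns, such as how open their chromatin is, were not measured.

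**Figure D3:**
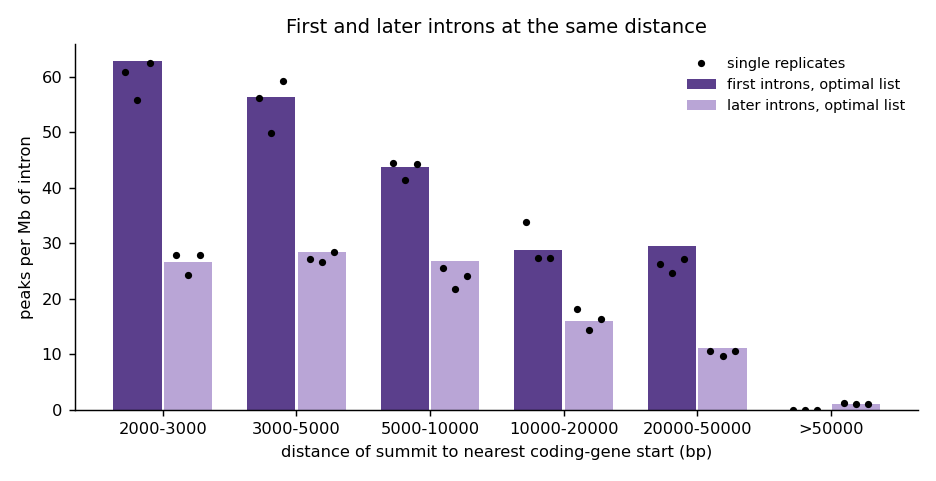
Peaks per Mb (y axis) in first introns (dark bars) and later introns (light bars) of coding genes by distance of the summit to the nearest coding start (x axis, bp), from the optimal list, with black points for the 3 replicates. The dark bar is the higher one in the 5 bins up to 50000 bp, at 62.7 against 26.6 in the nearest and 29.5 against 11.1 in the farthest of these, while beyond 50000 bp only later introns hold peaks (1.06 per Mb).

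The X chromosome and arms 2L and 3L had more of the members than of the far-intron bases, and arm 3R fewer, in the optimal list and in 3 of 3 replicates. On X lay 256 members, 21.9% against 18.1% of bases, at 33.5 per Mb, and the replicates' shares were 20.8%, 19.4% and 22.9%. On 3R lay 262, 22.4% against 27.3% of bases, at 22.7 per Mb, with replicate shares of 23.4%, 23.1% and 23.1%. On 2L lay 207, 17.7% against 16.1% of bases, with replicate shares of 18.4%, 18.5% and 17.4%, and on 3L 243, 20.8% against 19.9%, with 20.7%, 20.2% and 20.8%. The exact permutation p was 0.25 for each of these 4 arms. Arm 2R, with 17.2% against 17.5%, was above its share of bases in 1 of 3 replicates. Chromosome 4 had 0 members in the optimal list and in each replicate's 5208 strongest regions, which allows a share of up to 0.257% (3 counts of 1169, counting error only), below its 1.07% of far-intron bases. Samples were of mixed sex, and the number of X copies per cell was not corrected for. Repeats were kept in the base counts of every arm, chromosome 4 included. The share of all optimal peaks on each arm was not compared, so these values do not say whether the pattern is particular to far introns.

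Few members were at the starts of noncoding genes. A noncoding start within 500 bp was found for 23, 1.97% (interval 1.31 to 2.94%), against 1.15% of far-intron bases, and for 2.12%, 2.19% and 1.89% of the replicates' sets (exact permutation p = 0.25). Besides the osa peak these included 2 strong ones in beat-Ib near lncRNA:CR44867 and lncRNA:CR44868 (signals 1109 and 816). Another was in puc, a phosphatase of the JNK pathway, near lncRNA:CR44331 (signal 418).

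The peaks were spread over many genes and piled up in a few. A far intron is part of 4350 coding genes, and 596 of these held a member, 13.7%. In the replicates' own sets 594, 542 and 597 genes did (mean 578 ± 30.9, SD, n = 3). Exactly 1 member was in 329 genes, and 5 or more in each of 50 genes, which together held 322 members. A member was in more than 1 overlapping gene in 44 cases. For 915 members, 78.3%, the nearest start belonged to a gene that held the peak, and for the other 254 to a gene that did not.

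The 10 genes with most members are given with their far-intron length, and their counts are a description. The corepressor gene sbb had 11, all in first introns and 9 of them matched in all 3 replicates, on 46.8 kb of far intron. The replicates' sets had 13, 13 and 10 there. The adhesion gene kirre, of myoblast fusion, also had 11, but on 292 kb, and 2 of these were matched in all 3, with 11, 6 and 10 in the replicates. Eip75B, an ecdysone-induced nuclear receptor, had 10 (10, 9 and 10 in the replicates), with signals from 150 to 468.

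Raf had 10 on 29.3 kb (10, 7 and 11) with signals from 161 to 1243, none in a first intron. The gene shn, a zinc finger factor of Dpp signalling, had 10 on 29.8 kb (7, 10 and 9), and 18 optimal peaks of any class lay within it. The nuclear receptor gene ftz-f1 had 9 on 39.0 kb (9, 9 and 7), and tara 9 on 25.1 kb (9, 10 and 9), all of the latter in first introns. The others were CG1677, which spans several smaller genes, with 9, Snoo, a regulator of Smad signalling, with 8, and bun, a TSC22-family gene, with 8. Each of the 10 genes held at least 5 members by the same rule in each replicate.

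Neighbouring members were often close. The nearest other member was within 1000 bp for 246, 21.0%, and the median distance to it was 5007 bp. The nearest other optimal peak of any class was a median of 3058 bp away.

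Genes with a far-intron peak also had a promoter peak more often than other genes with far introns. Of the 596 genes 243 had an optimal peak within 500 bp of a start of their own, 40.8% (interval 36.9 to 44.8%), against 967 of 3754 without a member, 25.8% (24.4 to 27.2%). In replicates 1, 2 and 4 the shares were 40.4% against 25.5%, 50.6% against 26.9%, and 37.7% against 25.4%, a difference of 17.0 ± 5.96 points (SD, n = 3, higher in 3 of 3, exact permutation p = 0.25). The genes with a member had far more intron, a median of 17.2 kb against 0.936 kb. In the 5 size ranges compared the difference kept its direction in 3 of 3 replicates. The smallest range, up to 2 kb, had 22 genes with a member, and in replicate 4 the shares there were 28.6% against 27.5%. In genes with over 20 kb of far intron the shares were 39.2% against 19.9% in the optimal list. The number of starts per gene was not matched.

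Gene lists of known pathways differed widely in how densely their far introns were occupied. The reference was the 27.7 members per Mb over all genes. Of all genes with a far intron 13.7% held a member, a share that does not allow for intron length. Each list is described by its counts alone, because the lists were put together with results of these data known. Expected numbers took the density of all genes at the same distance from a start and the same intron order (first or later), a comparison added after the data were seen. Some genes stand in more than 1 list, and expression was not measured.

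The highest density was in genes of TORC1 and insulin signalling, the pathway REPTOR and REPTOR-BP answer to. Of 31 listed genes with a far intron 11 held a member, 31 members in all on 0.206 Mb, 150 per Mb, where 8.27 were expected. The replicates had 136, 136 and 160 per Mb, each at least 3.39 times the expected number. PRAS40, an inhibitor of TORC1, held 7 on 12.1 kb, and 2 of the 7 were matched in all 3 replicates. Its strongest peak, of signal 686, ranked 676 in replicate 1 and 352 in replicate 4 and had no match in replicate 2. Mnt, an antagonist of Myc that the list also takes in, held 6 on 18.8 kb (strongest 584, ranks 711, 595 and 705). PRAS40 and Mnt together held a large part of the 31 members on a small part of the 0.206 Mb. ImpL2, a secreted protein that binds insulin-like peptides, held 2 (strongest 599, ranks 839, 488 and 706).

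The genes of bZIP factors came next, with 16 members in 6 of 11 genes, 135 per Mb, 2.90 times the expected number. They included REPTOR, a gene that the labels name, which held 4 on 9.52 kb. The strongest of these (3R:24567457-24567670, signal 341) was in the first intron, 4381 bp from a start, and ranked 1300, 2607 and 1747 in the replicates. Pdp1, a bZIP factor of the circadian clock, held 7 of the 16 (strongest 479), and 1 of the 7 was matched in all 3 replicates. The replicates' sets had 6, 3 and 6 in Pdp1. CrebA, a regulator of secretory genes, held 2 (strongest 321).

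Growth factor and stress signalling genes were also dense. Kinases and phosphatases of growth and stress had 46 members in 16 of 48 genes, 95.5 per Mb and 2.99 times the expected number, with the strongest at Raf, at mnb, the minibrain kinase (signal 806), and at puc (636). Genes of EGFR, FGF, Wnt, Dpp and Hedgehog signalling had 74 in 23 of 55 genes, 84.1 per Mb and 2.46 times. There the strongest were in S, or Star, which helps process the EGFR ligand (872), in aos, which encodes the EGFR antagonist Argos (837), and in Dad, an inhibitory Smad (714).

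The ecdysone response genes had 45 in 12 of 26 genes (60.6 per Mb, 1.93 times), led by Hr3, Hr4 (870) and ImpL2. The chromatin list had 37 in 18 of 56 genes (60.5 per Mb, 1.84 times), led by osa, trx and Kdm2, and its members had the second highest median signal of the lists, 313. The circadian clock list had 11 in 5 of 19 (56.1 per Mb, 1.60 times), with cwo, a clock repressor (391), and nmo (278) after Pdp1. The Hippo pathway had 13 in 6 of 20 (45.6 per Mb, 1.67 times), among them wts, the Warts kinase, with 4 members (strongest 271), scrib (345) and ex (276).

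In the patterning list of Hox and segmentation genes there were 31 in 8 of 29 genes (44.6 per Mb, 1.53 times). Its strongest were in ush, a GATA cofactor (761), in Antp, a Hox gene with 7 members (599), and in cad (409). Of the 7 in Antp, 6 also lay in CG46458, a gene within its span, the strongest included. The Notch list had 15 in 7 of 16 (39.5 per Mb, 1.5 times), including mam, the Notch coactivator (872), N itself (585) and Bx (301). Autophagy and lysosome genes had 3 in 3 of 16, too few to rank, at Atg17 (532), Atg5 (315) and Atg1 (305), with 2.18 expected.

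Cytoskeleton genes had 24 in 13 of 51 (35.2 per Mb, 1.18 times), led by ena (454), chic, which encodes profilin (338), and RhoGAP71E (334). In replicate 4 the ratio to the expected number for this list was 0.944. Muscle genes had 20 in 6 of 33 (26.7 per Mb, 0.993 times), led by Dys, or dystrophin (772), kirre (557) and Zasp52 (335), and were above the density of all genes in 2 of 3 replicates.

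The lists of axon guidance, RNA-binding and ion channel genes were below the density of all genes in 3 of 3 replicates. The share of genes with a member was 33.3%, 35.1% and 10.6% in these lists, beside 13.7% of all genes with a far intron. Axon guidance and adhesion genes had 59 in 24 of 72 genes, 19.1 per Mb and 0.773 times the expected number, led by beat-Ib, fra, the netrin receptor (562), and kirre. RNA-binding regulators had 26 in 13 of 37 (16.4 per Mb, 0.674 times), led by shep (603), Rbfox1 (502) and mbl (395). Ion channel and synapse genes were the sparsest. They had 11 members in 7 of 66 genes on 1.58 Mb, 6.97 per Mb, where 35.2 were expected, and the replicates had 6.97, 6.33 and 8.87 per Mb. Those few were led by ChAT, the acetylcholine-synthesising enzyme (525), dnc, a cyclic AMP phosphodiesterase (429), and Ca-beta (309).

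**Figure D4:**
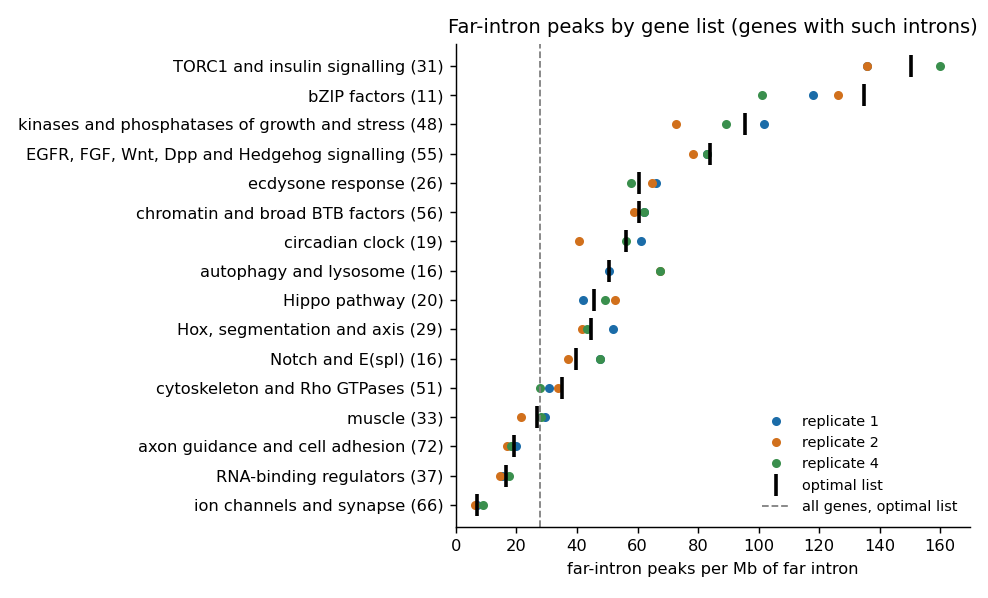
Far-intron peaks per Mb of far intron (x axis) for 16 gene lists (y axis, with the number of genes that have a far intron in brackets), in each replicate (coloured points) and the optimal list (black bars); the dashed line is the density over all genes, 27.7 per Mb. TORC1 and insulin signalling genes are at 150 and ion channel and synapse genes at 6.97 per Mb in the optimal list, and the replicates of these lists do not overlap.

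The summits of the members stood in a narrow dip of G and C content. In windows reaching 50 bp to each side of the summit G+C was 33.6%, against 41.8% in windows centred 500 bp away and 40.04% over all far-intron bases. The summit was lower than its own flanks in 910 of the 1169 members, 77.8%. In the replicates' sets the change was -7.62, -6.18 and -8.12 percentage points, a mean of -7.31 ± 1.00 (SD, n = 3, exact permutation p = 0.25). The members shared this with the other classes, where G+C at the summit was 33.8% in nearer introns, 35.6% at promoters and 34.7% between genes. Against promoter peaks the change was smaller in the members in 2 of 3 replicates (difference 1.62 ± 1.62 points, exact permutation p = 0.50).

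TGTTTAC, the forkhead word, was commoner at these summits than in their flanks. It was found on either strand in 71 member windows, 6.07% (interval 4.84 to 7.59%), beside 4.3% of all optimal peaks, and in 2.52% of the members' flanking windows. The ratio of summit to flank was 2.41 in the members and 3.16, 3.63 and 2.33 in the replicates' sets (mean 3.04 ± 0.658, SD, n = 3, exact permutation p = 0.25). It was 2.00 in nearer introns, 1.49 at promoters and 1.25 between genes. Of promoter summit windows 3.40% held it.

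On the log2 scale the ratio was higher in the members than at promoters by 0.92 ± 0.21, than between genes by 1.29 ± 0.57 and than in nearer introns by 0.41 ± 0.09 (SD, n = 3, higher in 3 of 3 replicates in each case, exact permutation p = 0.25). Between 200 and 1000 bp from the summit, 34 overlapping windows of the members held it in 1.63 to 4.36% (median 2.31%). The word's centre lay a median of 20 bp from the summit in the 71, and in 45 of them it was within 25 bp. A match is a description of the letters and no proof that a forkhead factor binds there. Of the searched words made of A and T alone, TAATTA and TATATATA had ratios of 1.54 and 1.82 in the members. The run AAAAAAAA had a ratio of 0.918 in the members, 1.375 in nearer introns, 1.28 at promoters and 1.12 between genes. How far base composition sets the ratio of the forkhead word was not tested.

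**Figure D5:**
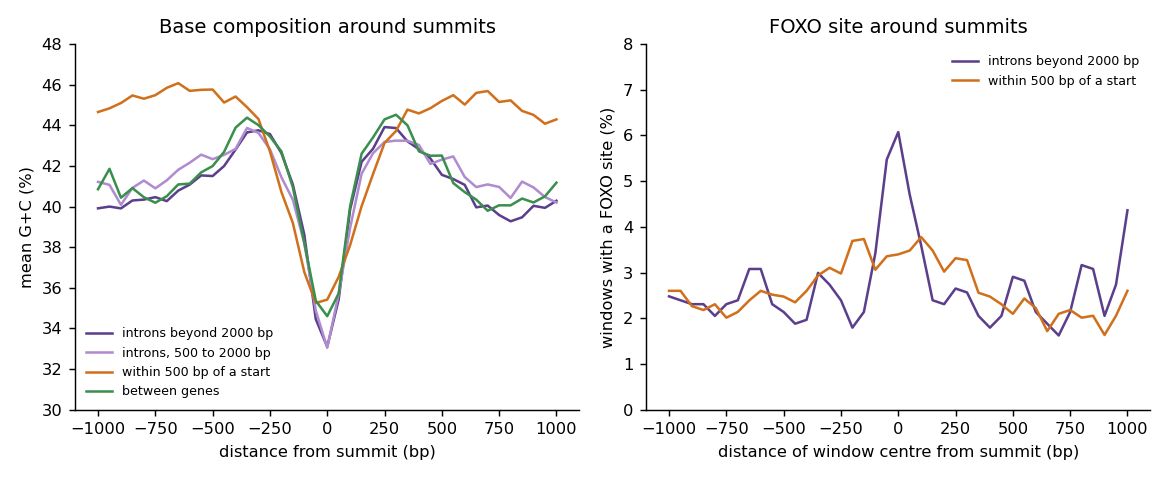
Left, mean G+C in percent (y axis, starting at 30) of windows reaching 25 bp to each side, against distance from the summit in bp (x axis) for 4 classes of optimal peaks; right, percent of windows reaching 50 bp to each side that hold TGTTTAC (y axis) for far-intron peaks (purple) and promoter peaks (orange). G+C in the far-intron peaks is 33.1% at the summit and 43.9% at 250 bp, and TGTTTAC peaks at 6.07% at their summit, where promoter peaks are at 3.40%.

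The 71 members with the forkhead word had a median signal of 235, against 224 for the 1098 without it, and 56.3% against 50.1% were matched in all 3 replicates. Among the strongest were the peak in Lrch, a leucine-rich repeat protein (rank 261 in replicate 1, 112 in 2 and 495 in 4), and the one in Star (350, 108 and 551). The Raf peak with the word was another than the strongest one, at 5230 bp from the start (436, 394 and 276). The peak in Atg17, a scaffold of autophagy initiation, held it as well (signal 532, ranks 773, 323 and 2207).

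The words of bZIP factors gave a mixed result. The CRE core TGACG, part of the site of CREB and ATF dimers, was rarer at the summit than in the flanks: 71 members held it, 6.07% beside 6.72% of all optimal peaks, against 8.77% of flanking windows. The ratio was 0.693, and 0.701, 0.780 and 0.582 in the replicates (exact permutation p = 0.25). The core was also rarer at the summit in the other classes, with ratios of 0.588 in nearer introns, 0.724 at promoters and 0.609 between genes. The full palindrome TGACGTCA, which contains that core on both strands, occurred in 2 members.

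The word TGANTCA, called the AP-1 word here, takes in TGACTCA, the site read by Fos and Jun dimers, and also the form TGAATCA. It was found in 42 members, 3.59% beside 2.52% of all optimal peaks, against 2.05% of flanks. The ratio was 1.75, and 1.82, 1.30 and 1.28 in the replicates, against 1.04 at promoters. The difference from promoters on the log2 scale was 0.49 ± 0.21 (SD, n = 3, exact permutation p = 0.25). The excess was in the form TGAATCA (29 members, 2.48%, ratio 2.42) and not in TGACTCA (13 members, 1.11%, ratio 1.08), a division made after the data were seen. In the replicates the ratio of TGACTCA was 1.04, 1.04 and 1.00, and that of TGAATCA 2.82, 1.63 and 1.60. The word was not sharply centred, since windows centred 300 bp to one side of the summit held it in 3.85% of members.

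Among the other words, the homeodomain word TAATTA was in 10.1% of member summits, beside 9.95% of all optimal peaks, and in 6.54% of flanks (ratio 1.54, and 1.23, 1.54 and 1.20 in the replicates). At promoters its ratio was 2.14. The repeat GAGAGAG, bound by GAGA factor, was rare, in 10 members or 0.855% beside 1.19% of all optimal peaks, against 3.81% of flanks (ratio 0.225, and 0.494, 0.480 and 0.341 in the replicates). The size of this difference depended on the windows: the log2 ratio was -2.15 here, -0.95 with windows of 100 bp to each side and -1.38 with flanks 1000 bp away, where the replicate mean was -0.39 instead of -1.21 (n = 3, exact permutation p = 0.50). GAGAGAG was also rarer at the summit in the other classes, with ratios of 0.262 in nearer introns, 0.593 at promoters and 0.261 between genes. TATCGATA, the DRE word of housekeeping promoters, was in 0 members, which allows up to 0.257%, and in 0.128% of their flanks. The replicates' sets held it in 0%, 0.0953% and 0.0861% of summits. It was in 0.126% of summits in nearer introns, 0.129% between genes and 3.19% at promoters. Of 23 words, 11 were in at least 20 members. Of these, 4 were commoner and 6 rarer at the summit than in the flanks in the optimal list and in 3 of 3 replicates. The 4 were the forkhead and homeodomain words, TGANTCA and the TA repeat TATATATA. The 6 were the CRE core, the E-box CAGCTG, the Scalloped word GGAATG, the Pleiohomeotic word GCCAT, the A run AAAAAAAA and the CA repeat CACACACA. Both strands were searched, and AGGTCA was the 1 word of the 11 without a common direction.

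The hexamers with the highest ratio of summit to flank were made mostly of A and T. Among 695 hexamers found in at least 50 member windows, each counted with its reverse complement, the median ratio was 1.26. The first was ATACTA, in 7.70% of member summits and 2.74% of flanks (ratio 2.81, mean of the replicates 2.49 ± 0.262, SD, n = 3). ACCTAT had a ratio of 2.78, ATATTA 2.73, ATAGTA 2.70, TACTAA 2.62, AGTATG 2.58, ACTTAG 2.54, GTTATA 2.42, ATGTTA 2.34 and AATATT 2.32. Several of these words overlap each other. At promoters the same words had ratios of 1.39 for AGTATG to 2.62 for ATATTA. At least 1 of the 10 was in 636 members, 54.4%, against 26.7% of flanking windows, a count that follows from their choice.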

How the data were processed

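Regions were deposited by the authors as narrowPeak lists on the dm6 build, 30000 regions for each of 3 replicates and for the pool, and 5208 in the optimal list. Per the deposited inventories, each list had a control, and the optimal list came from the replicate and pooled lists by irreproducible discovery rate. Which aligner, caller and threshold were used is not stated in the labels or file headers. Signal, as deposited, is the value of the authors' caller, with no stated normalization, and another deposited column holds a −log10 q value, read but not used for any result. No read counts were used, so depth is unknown, and intervals and limits for a count of 0 cover the counting of peaks only.

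Each replicate's 5208 strongest regions were used as equal lists. Summits within 100 bp matched. Coding genes (13945), exons and starts came from Ensembl release 115 for dm6 and sequence from RefSeq. Equal chromosome names and the same assembly let both be used with the lists. Replicates, 1 group, were compared by exact two-sided sign-flip permutation. Labels give separate biosamples, which are the units of this test. Its p is 0.25 whenever all 3 differences have the same sign, whatever their size, so it does not measure their spread. Motifs were counted on both strands, as windows with at least 1 match. Of 783 listed symbols 775 matched a gene, 20 through RefSeq synonyms. Named were the 20 strongest members matched in all replicates, the 10 genes with most members, up to 3 genes per list by strongest member, and the 10 leading hexamers. Some noncoding starts, forkhead-word peaks and the farthest members were named after their values were seen. The members, lists, words and tests were chosen with earlier results of these data known. Statistics, in Python 3.11.15, numpy 2.4.6 and pandas 2.3.3, were tested on simulated data. The dm3 lists were not used here.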

Additional observations from a re-analysis of the deposited data

How the results depend on the processing

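The share of members matched among strongest regions, 1.46 points below promoters, turned above them among the strongest 10000 regions (2.48 points), in full lists (2.95) and in the upper 50% of the optimal list by signal (0.981), while leaving out each replicate gave -1.81 to -1.04. The cause was not tested. The number of genes holding a member was 349 with a 5000 bp limit (replicate mean 339), 317 in the upper 50% of the list (313) and 380 where only peaks with a match in every replicate were kept, by construction with fewer peaks. The other 238 of 246 alternative values kept their direction, or for counts of genes stayed within 1.5 times, over the limits, start sites, exons, windows, flanks and replicates left out. The log2 ratio of peak share to base share, -0.49, was -0.08 when only the start of each gene was counted (replicate mean -0.12 instead of -0.54) and -0.89 with the 5000 bp limit. With bases and peaks up to 20000 bp from a start, chosen after seeing the data, it was -0.19, and the excess in first introns 17.4 instead of 23.2 points. The FOXO word's log2 ratio ranged from 0.83 to 1.77 in the optimal list and the AP-1 word's from 0.26 to 1.30, and the GAGA repeat's from -2.64 to -0.95. No paired analysis was possible because the samples form 1 group with no other to pair with. The tests compare classes of region within each replicate. Lists without read counts limit what can be said of weak regions.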

Other observations

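Below the optimal list, far introns took a larger share of the pooled list. Among ranks 5209 to 10000, 27.0% of regions met the position rule (1295 of 4792, 95% Wilson interval 25.8 to 28.3%), among ranks 10001 to 15000 31.1%, and among ranks 25001 to 30000 36.2% (interval 34.9 to 37.6%). Promoter regions went from 34.7% to 14.1% over the same ranks. The authors' lists hold peaks and background together there.

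Members in 2 replicates but not the third, 406 of them, were a larger share of far-intron peaks (34.7%) than of promoter peaks (28.7%), a difference that was not tested. Replicate 2 matched the fewest members, 70.6%, and its own strongest regions held the fewest far-intron peaks, 1049, and the most promoter regions, 50.3% against 45.0% and 45.3%.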
